A study of Mus musculus with 2 samples.

Results

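The genes described here bind or move zinc and copper in the cell. They were chosen by name: the metallothionein genes Mt1 to Mt4, the zinc-sensing factor gene Mtf1, the SLC30 and SLC39 families of zinc transporters, and the copper genes Slc31a1, Slc31a2, Atp7a, Atp7b, Atox1 and Ccs. The rule found 35 of the 22838 genes in the deposited table by name alone, though the choice was made with earlier results of these data known. RNA came from NIH3T3, an established line of mouse fibroblasts, in 2 libraries. The control cells were left untreated, and the other cells received 100 µM ALA for 16 h. The labels spell the agent only as ALA, an abbreviation used in heme research for δ-aminolevulinic acid, from which cells build heme. The comparison asks how these genes differ between cells with and without it. Each group is 1 library of 1 line, so the differences below cannot be set against a spread between cultures, and they carry no p-values.

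Zinc is a cofactor of many enzymes and transcription factors, and free zinc in the cytosol is kept very low. Metallothioneins are small proteins rich in cysteine that bind zinc and copper. MTF1 (gene Mtf1) senses zinc and binds short DNA motifs called metal response elements, through which it is known to drive Mt1, Mt2 and the zinc exporter gene Slc30a1. SLC30 proteins move zinc out of the cytosol, across the plasma membrane or into organelles, and SLC39 proteins move it into the cytosol. Copper enters through CTR1 (gene Slc31a1) and is carried by chaperones to the copper ATPases and to superoxide dismutase.

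The main values were as follows. Mt1 and Mt2 were 1.62-fold and 1.52-fold lower with ALA by the plain ratio of their FPKM values, a level scaled to transcript length and library depth. Slc30a1 was 1.90-fold higher with ALA. No other measured member reached 1.5-fold, and none reached 2-fold. Most zinc importer genes and the vesicular exporter gene Slc30a4 were nearly level.

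A log2 ratio below is the log2 of the ALA value over the untreated value after 1 FPKM was added to each, and it understates the change of low genes. A gene was called measured when its mean over both libraries was at least 1 FPKM, and calls of 1.5-fold or 2-fold use this log2 scale. Of the 35 members 24 were measured. Another 8 were listed at 0 in both libraries, and 3 lay between 0 and the minimum. Of the measured members, 1 was at least 1.5-fold higher and 2 were as much lower. Over all 10929 measured genes, the shares past 1.5-fold were 5.9% higher and 7.16% lower. At 2-fold the members gave 0 in either direction, against 1.49% higher and 2.01% lower over all measured genes. The share of members called is therefore near that of all genes. Of the calls at 1.5-fold over all genes 45.2% were on the higher side, and 56.9% were when the libraries were set to equal FPKM totals. The median log2 ratio was -0.07 over the members, turning to 0.0033 with equal totals, and -0.02 over all measured genes, turning to 0.05.

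The files gave no counts, and the deposited error bounds were equal in 100% of the rows. Depth was therefore estimated from the steps between low FPKM values, at about 22000000 reads untreated and 31300000 with ALA. Intervals below are approximate 95% counting intervals that rest on this estimate and cover counting error only. They and the read numbers also rest on the shortest annotated coding transcript of each gene. A longer transcript would give more reads and a narrower interval. The fibroblast marker list was present as the label says, with 9 of 9 genes measured and sums of 12743 FPKM untreated and 11194 FPKM with ALA. Of these 9 markers 8 had lower values with ALA, and Pdgfra (-0.64) and Thy1 (-0.62) were more than 1.5-fold lower, about as far as Mt1 and Mt2. Of the macrophage list 2 of the 5 genes in the table were measured, and its summed level was 29.0 FPKM untreated and 16.5 FPKM with ALA, a difference that came from Cd14 (13.1 and 4.69 FPKM) and Lyz2 (15.2 and 9.59 FPKM). The other 3 genes had higher values with ALA: Cd68 at 0.237 and 1.40 FPKM, Ptprc at 0.367 and 0.754 FPKM, and Csf1r at 0 and 0.0466 FPKM. Of the epithelial list 2 of 5 were measured, with sums of 85.4 and 115 FPKM, nearly all from Krt14, and Epcam and Krt18 were at 0. Endothelial and erythroid lists had 0 measured genes, and neuron and muscle lists 1 each. The part of such differences in the results was not tested, and fewer cells of a kind cannot be told apart from less RNA per cell.

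The sequences that bear on the metallothionein result are the coding sequences of Mt1 and Mt2, since 2 genes so alike could share reads. They are shown 5′ to 3′ from the GENCODE M21 transcripts, with capitals at the positions where they differ.
Mt1: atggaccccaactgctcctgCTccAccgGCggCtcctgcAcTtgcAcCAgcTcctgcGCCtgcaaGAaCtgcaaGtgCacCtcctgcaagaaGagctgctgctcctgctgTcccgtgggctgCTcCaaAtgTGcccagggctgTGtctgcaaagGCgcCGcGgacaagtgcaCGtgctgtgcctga
Mt2: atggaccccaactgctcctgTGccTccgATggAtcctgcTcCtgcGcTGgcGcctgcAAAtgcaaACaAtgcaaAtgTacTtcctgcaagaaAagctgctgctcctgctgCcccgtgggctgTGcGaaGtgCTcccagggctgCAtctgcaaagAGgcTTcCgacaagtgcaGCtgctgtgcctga

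Each coding sequence had 186 bases with its stop codon and 61 codons before it. In both genes 20 of those codons encode cysteine, at the same 20 places, the residues that hold the metal. The sequences were identical at 148 of 186 positions (79.6%). The longest run without a difference was 20 bases, shorter than the reads of 41 bases. No stretch of 41 bases of any annotated Mt1 transcript occurred in a transcript of another gene. For Mt2, 51.5% of such stretches also occurred in Gm45774, an annotated antisense gene on the other strand that the deposited table does not list. No strand setting is given in the sources used here, so reads from Mt2 and from that antisense gene cannot be told apart.

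The promoters of the 3 members past 1.5-fold are shown next, because MTF1 is known to act on all of them. The windows run from 250 bases before to 50 after the RefSeq start on GRCm38.p6. Capitals mark matches to the metal response element core, searched as TGCACNC and TGCGCNC on both strands, with overlapping matches counted as 1 site.
Mt1, plus strand, chr8:94178839-94179138: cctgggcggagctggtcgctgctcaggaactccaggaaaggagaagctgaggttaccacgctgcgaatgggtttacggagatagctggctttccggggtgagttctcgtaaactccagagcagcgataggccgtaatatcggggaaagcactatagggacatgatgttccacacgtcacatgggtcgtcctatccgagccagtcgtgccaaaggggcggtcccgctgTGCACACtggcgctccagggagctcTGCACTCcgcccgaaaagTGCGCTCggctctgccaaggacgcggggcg
Mt2, plus strand, chr8:94172368-94172667: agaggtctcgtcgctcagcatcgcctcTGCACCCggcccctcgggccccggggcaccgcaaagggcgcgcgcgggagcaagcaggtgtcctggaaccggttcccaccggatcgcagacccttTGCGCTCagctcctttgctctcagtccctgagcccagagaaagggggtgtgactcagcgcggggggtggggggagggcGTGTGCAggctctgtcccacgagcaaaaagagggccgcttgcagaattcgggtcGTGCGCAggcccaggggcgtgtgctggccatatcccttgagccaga
Slc30a1, plus strand, chr1:191906531-191906830: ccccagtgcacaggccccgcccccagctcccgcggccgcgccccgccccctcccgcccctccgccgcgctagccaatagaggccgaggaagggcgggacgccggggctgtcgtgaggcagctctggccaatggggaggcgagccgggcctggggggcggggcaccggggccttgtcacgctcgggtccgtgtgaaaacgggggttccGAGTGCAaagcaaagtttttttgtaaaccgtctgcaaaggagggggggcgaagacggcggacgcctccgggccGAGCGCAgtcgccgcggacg

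Within these windows Mt1 had 3 sites, Mt2 had 4 and Slc30a1 had 2. Each window rests on 1 RefSeq start, and sequence outside it was not searched for further sites. Whether that start is the one used in these cells was not tested. A window at another start of Mt1 could hold other sites, so the site counts do not rank the genes. Counted with 1 at the RefSeq start base and no position 0, those of Mt1 began at -23, 3 and 21, all on its own strand. Those of Mt2 began at -223, -128, -50 and 5, and those of Slc30a1 at -43 and 31. The RefSeq start of Slc30a1 lies 12709 bp from the 5′ end of its deposited locus, which also covers a neighbouring gene named below. At least 1 site was held by 25.7% of the 32851 promoters listed by RefSeq, and 6.14% held at least 2, 1.31% at least 3 and 0.295% at least 4. Among 10681 promoters of measured genes the shares were 35.8%, 9.62%, 2.01% and 0.44%. The table had a promoter for 30 of the 35 members, and none for Ccs, Slc30a8, Slc39a4, Slc39a6 and Slc39a14.

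**Figure D1:**
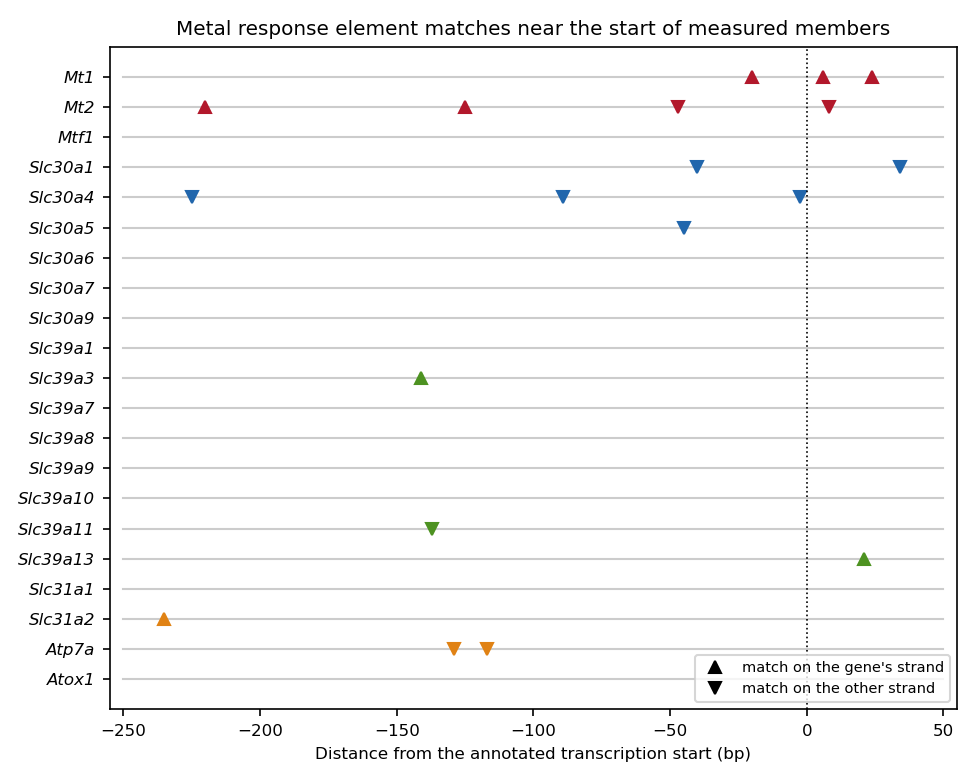
Sites that match the metal response element core in the windows of the 21 measured members with a RefSeq promoter, by distance from the annotated start in bp, one line per gene and coloured by role; triangles point up for a match on the strand of the gene and down for the other strand. A reader should see the 4 sites of Mt2 and the 3 sites each of Mt1 and Slc30a4, and that 11 of the 21 windows hold none.

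Of the 21 measured members with a promoter, 10 (47.6%) held at least 1 site. Slc30a4, whose log2 ratio was -0.07, held 3 sites in its window. Atp7a held 2. Slc30a5, Slc39a3, Slc39a11, Slc39a13 and Slc31a2 held 1 each, though the RefSeq start of Slc39a3 lies 3403 bp from the 5′ end of its deposited locus. The window of Mtf1 itself held none. A match is a description of these letters and not evidence of binding.

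Mt1 and Mt2 were by far the most abundant members. Mt1 stood at 1091 FPKM untreated and 674 FPKM with ALA. Its log2 ratio was -0.69, with a counting interval of -0.73 to -0.66. Mt1 lies on the plus strand of chromosome 8 at 94179082 to 94180327 of GRCm38. By mean level it ranked 101 among all genes of the table. The abundant range, a mean of 300 FPKM or more, held 230 genes, of which 9 had a lower log2 ratio than Mt1.

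Mt2 had 581 FPKM untreated and 382 FPKM with ALA. Its log2 ratio was -0.60, with an interval of -0.66 to -0.55, which spans the limit of 1.5-fold at a log2 ratio of 0.58 in size, so that counting error alone leaves this call undecided. The gene lies next to Mt1 on the same strand, at 94172664 to 94173568. Mt1 and Mt2 together went from 1672 to 1056 FPKM, and Mt1 stood at 1.88 times the FPKM of Mt2 untreated and 1.77 times with ALA. The balance of the 2 genes was thus nearly kept while both were lower. In that abundant range 6.52% of genes lay past 1.5-fold on the lower side and 0.87% on the higher side. Mt2 was less than 1.5-fold lower when the libraries were set to equal FPKM totals, with a log2 ratio of -0.52. It was also under that limit, at -0.58, when the libraries were scaled to a median ratio of 1.

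Mt3, a metallothionein of brain, and Mt4, one of stratified squamous epithelia, were listed at 0 in both libraries. They lie upstream of Mt2 in the same cluster, at 94152607 to 94154146 and at 94137197 to 94139031.

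Mtf1 had 8.41 FPKM untreated and 5.94 FPKM with ALA. Its log2 ratio was -0.44, with an interval of -0.53 to -0.35, which is short of 1.5-fold. The gene is on the plus strand of chromosome 4 at 124802104 to 124849800. The table gives it the same locus as 1110065P20Rik, a gene on the other strand that shares 721 exon bases with it. 1110065P20Rik went the other way, from 9.95 to 19.7 FPKM. The sum of both genes was 18.4 FPKM untreated and 25.6 FPKM with ALA (log2 ratio 0.46). That sum describes the pair and is not a reassignment of reads, since the shared bases are 8.19% of the exon bases of Mtf1. How the authors assigned reads over them is not stated.

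**Figure D2:**
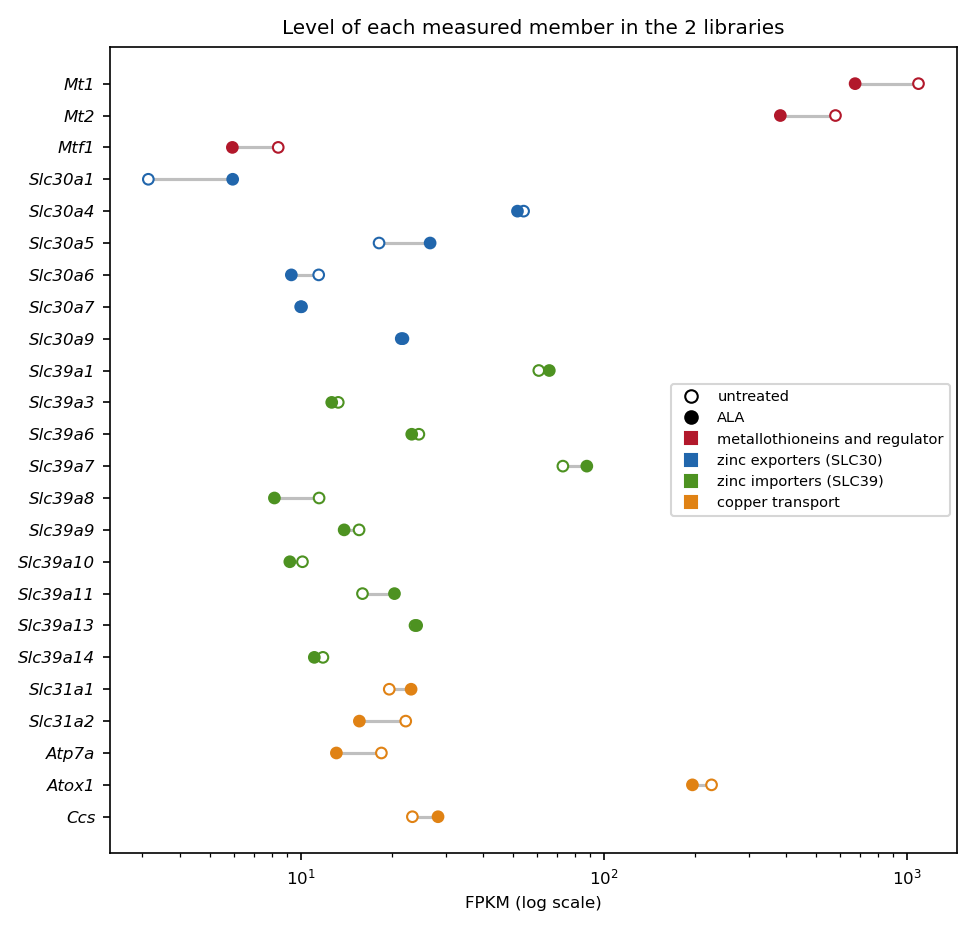
FPKM of the 24 measured members on a log axis, with an open circle for the untreated library and a filled circle for the ALA library, coloured by role. A reader should see Mt1 and Mt2 far to the right and shifted left with ALA, Slc30a1 moving from 3.14 to 5.95 FPKM, and most transporters with both circles close together.

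Among the zinc exporter genes, Slc30a1 differed most. Its protein, ZnT1, is the main zinc exporter of the plasma membrane. Slc30a1 had 3.14 FPKM untreated and 5.95 FPKM with ALA, or about 362 and 977 reads. The log2 ratio was 0.75, with an interval of 0.61 to 0.89, and 96.7% of measured genes had a lower one. It was the lowest measured member by level, and its log2 ratio lay opposite in sign to those of Mt1 and Mt2. In the range of 1 to 10 FPKM, the shares of genes past 1.5-fold were 10.2% higher and 11.7% lower. With 5 FPKM added instead of 1 its log2 ratio was 0.43, under the limit. Slc30a1 lies on the plus strand of chromosome 1 at 191906767 to 191913247. The antisense gene 1700034H15Rik shares 468 exon bases and the deposited locus with it, and had 0.231 and 0.0393 FPKM. The sum of both genes had a log2 ratio of 0.68.

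Slc30a5 encodes a zinc transporter of the early secretory pathway that works as a pair with the product of Slc30a6. It had 18.1 FPKM untreated and 26.7 FPKM with ALA. The log2 ratio was 0.54, with an interval of 0.44 to 0.63, and it became 0.61 with equal library totals, past 1.5-fold. Its partner Slc30a6 had 11.4 and 9.30 FPKM (log2 ratio -0.27, interval -0.57 to 0.03). The values of the 2 partners thus had opposite signs, though the interval of Slc30a6 reaches 0. That interval rests on a transcript of 545 bp, while the longest of Slc30a6 has 2148 bp and would give a narrower one.

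The other exporter genes were level. Slc30a4, for a vesicular transporter that loads zinc into milk, had the highest level of the family, 54.3 FPKM untreated and 51.8 FPKM with ALA. Its log2 ratio was -0.07, which turned to 0.01 with equal library totals. Slc30a9, for a transporter linked to mitochondrial zinc, had 21.4 and 21.7 FPKM (log2 ratio 0.02). Slc30a7, for a Golgi transporter, had 9.98 and 10.05 FPKM (0.01), and 15.6% of its stretches of 41 bases occur in other genes.

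Tissue-restricted exporter genes were at or near 0. Slc30a2, Slc30a3, for the transporter of synaptic vesicles, and Slc30a10, for a manganese exporter, were listed at 0 in both libraries. Slc30a8, for the transporter of insulin granules, had 0.376 FPKM untreated and 0.0217 FPKM with ALA, or about 16 and 1 reads. Over the family, 4 of 6 measured genes had a log2 ratio above 0, beside 47.8% of all measured genes, with a median of 0.01. Among those above 0, the intervals of Slc30a7 and Slc30a9 held 0. Of the 6 genes 1 was at least 1.5-fold higher and 0 were as much lower, beside 5.9% and 7.16% of all measured genes.

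None of the 10 measured SLC39 zinc importer genes reached 1.5-fold, beside 5.9% higher and 7.16% lower over all measured genes. So few genes cannot set the family apart from those shares. Their log2 ratios ran from -0.44 to 0.33 with a median of -0.07. The highest levels belonged to Slc39a7, which encodes ZIP7, a protein that releases zinc from the endoplasmic reticulum. It had 73.2 FPKM untreated and 87.8 FPKM with ALA (log2 ratio 0.26). Of its stretches 75.6% also occur in Gm20427, an overlapping annotated transcript that the table does not list.

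Slc39a1, for the plasma membrane importer ZIP1, followed with 60.9 and 66.0 FPKM (log2 ratio 0.11). It shares 24.0% of its stretches, nearly all with the annotated pseudogene Slc39a1-ps. Slc39a11 had the highest log2 ratio of the family, 0.33 with an interval of 0.22 to 0.44, at 16.0 and 20.4 FPKM. Slc39a8, for ZIP8, a carrier of zinc and manganese, had the lowest, -0.44 with an interval of -0.57 to -0.32. It went from 11.5 to 8.17 FPKM. Slc39a14, for ZIP14, the closest relative of ZIP8 and also an iron carrier, had 11.8 and 11.1 FPKM and a log2 ratio of -0.09.

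Slc39a6 and Slc39a10 encode plasma membrane importers that act as a pair. Slc39a6 had 24.5 FPKM untreated and 23.2 FPKM with ALA, and Slc39a10, a gene known to be repressed through MTF1 when zinc is plentiful, had 10.1 and 9.19 FPKM. Their log2 ratios were -0.08 and -0.13. Slc39a9 had 15.6 and 13.9 FPKM (log2 ratio -0.15). Slc39a3 had 13.3 and 12.6 FPKM (-0.07), and Slc39a13, for a secretory pathway transporter needed in connective tissue, had 23.8 and 24.1 FPKM (0.02). The signs of Slc39a3 and Slc39a6 turned with equal library totals, to 0.01 and 0.0002. Slc39a2, Slc39a5 and Slc39a12 were listed at 0 in both libraries, and Slc39a4, the main zinc importer of the intestine, had 0.017 FPKM untreated and 0 with ALA.

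Summed over all members of each family, exporter genes had 119 FPKM untreated and 126 FPKM with ALA. Importer genes had 261 and 276 FPKM. Both sums differed by 0.08 on the log2 scale.

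The copper genes differed in sign. The uptake gene Slc31a1 had 19.6 FPKM untreated and 23.1 FPKM with ALA (log2 ratio 0.23, interval 0.14 to 0.31). Slc31a2, for the related transporter CTR2 of intracellular membranes, had 22.2 and 15.6 FPKM (log2 ratio -0.48, interval -0.68 to -0.28). Atp7a, for the ATPase that loads copper into secreted enzymes and exports it, had 18.4 and 13.1 FPKM (log2 ratio -0.46, interval -0.55 to -0.38). None of the 5 measured copper genes reached 1.5-fold, though the interval of Slc31a2 spans that limit. Over all measured genes the shares were 5.9% higher and 7.16% lower, from which 5 genes cannot be set apart.

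Atox1, for the chaperone that hands copper to the ATPases, was the third most abundant member, with 226 FPKM untreated and 196 FPKM with ALA. Its log2 ratio was -0.21, with an interval of -0.28 to -0.14. Ccs, for the chaperone that hands copper to superoxide dismutase SOD1, had 23.3 and 28.3 FPKM (log2 ratio 0.27, interval 0.11 to 0.44). Atp7b, for the ATPase best known from liver, was listed at 0 untreated and at 0.368 FPKM with ALA, about 47 reads, and no fold is given against a value listed at 0.

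**Figure D3:**
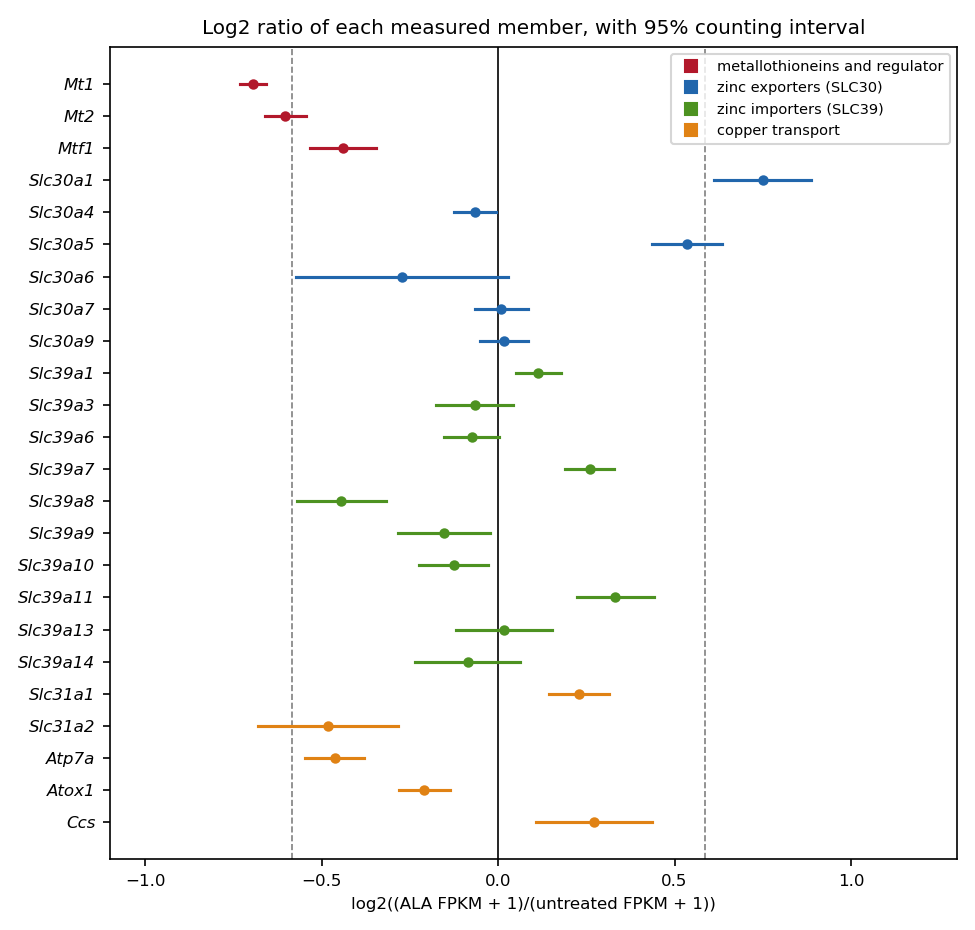
Log2 ratio of each measured member (points) with its approximate 95% counting interval (bars), coloured by role; dashed lines mark 1.5-fold. A reader should see Mt1 and Mt2 left of the lower line, Slc30a1 right of the upper line, and all other points between the lines.

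Counting error and the spread among genes gave different pictures of the members. The counting interval lay above 0 for 7 members, below 0 for 10, and held 0 for 7. The same count was not made over all measured genes, so it is no result about the members. The intervals were narrow, with a median width of 0.19 and a range from 0.07 for Mt1 to 0.60 for Slc30a6. The middle 95% of all measured genes ran from -0.93 to 0.83 on the same scale, which is wider than the range of the members, -0.69 to 0.75. Differences between cultures are not covered by the intervals.

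**Figure D4:**
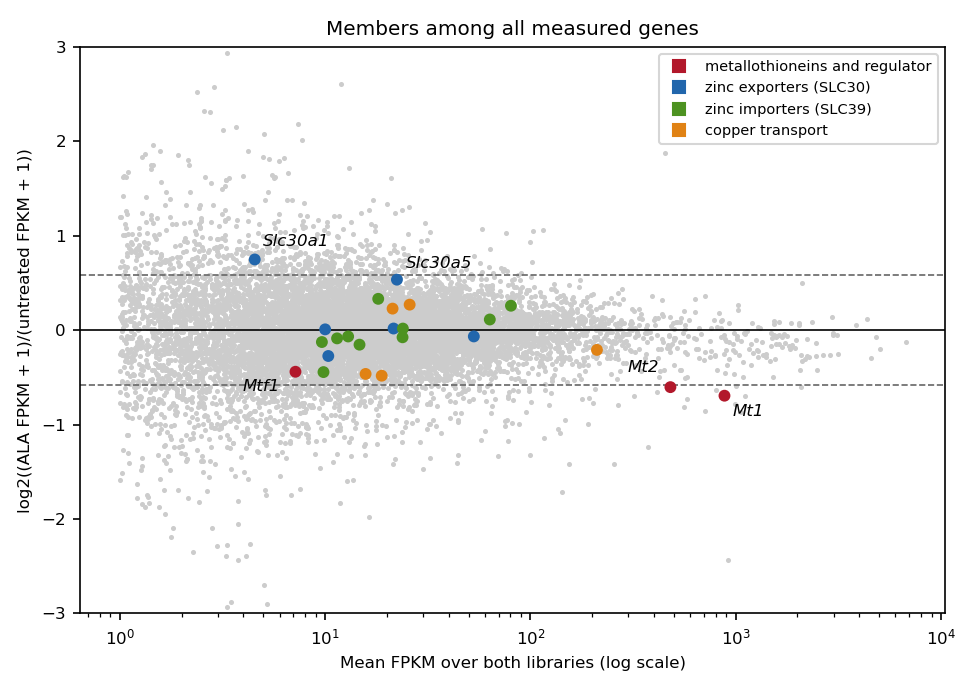
Log2 ratio against the mean FPKM of both libraries (log axis) for all measured genes (grey; 9 genes beyond 3 log2 units are not drawn) and for the members (coloured by role); dashed lines mark 1.5-fold. A reader should see Mt1 and Mt2 at the lower edge of the narrow cloud of abundant genes, and Slc30a1 inside the wider cloud of low genes.

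Other genes of zinc and copper biology were taken from 4 lists, which share no gene with the members. Among copper chaperones and copper-dependent proteins, 3 of 21 measured genes were at least 1.5-fold lower and 0 were as much higher, beside 7.16% and 5.9% of all measured genes. The median log2 ratio was -0.17, with 6 genes above 0 and 15 below, where 5222 of all 10929 measured genes (47.8%) lay above 0 and 5707 below. Cp, for the plasma ferroxidase ceruloplasmin, had 8.85 FPKM untreated and 5.03 FPKM with ALA (log2 ratio -0.71), and Loxl4, for a lysyl oxidase, had 6.41 and 3.72 FPKM (-0.65). Sco2, for a copper chaperone of cytochrome oxidase, had 9.05 and 3.85 FPKM (-1.05), but other genes, mostly Tymp, cover 91.8% of its exon bases. Lox, the matrix lysyl oxidase gene and the most abundant of the list, had 1029 and 832 FPKM (-0.31). Cox19, Pam and Sco1 were at -0.44, -0.43 and -0.41. Pam encodes the copper enzyme that amidates peptides, and Cox19 and Sco1 serve cytochrome oxidase assembly. Apart from Lox, these genes are named for the size of their log2 ratios, so their common sign is no separate result. Sod1, the partner of Ccs, had 304 and 306 FPKM.

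Among other metal channels, reductases and transporters, 1 of 15 measured genes was at least 1.5-fold higher and 1 was at least 1.5-fold lower. The shares over all measured genes were 5.9% and 7.16%. The list had a median of -0.07. The iron exporter gene Slc40a1 had 3.13 FPKM untreated and 6.31 FPKM with ALA (log2 ratio 0.82). The magnesium transporter gene Slc41a1 had 25.4 and 14.7 FPKM (log2 ratio -0.75), and its relatives Slc41a3 and Slc41a2 were at -0.53 and -0.42. Steap1, of a family of metal reductases, was at 0.46 and Atp13a2, for a lysosomal ATPase, at 0.43. Steap3, the most abundant of the list, had 162 and 146 FPKM.

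Among zinc-dependent enzymes and zinc-binding proteins, 1 of 14 measured genes was at least 1.5-fold lower and 0 were as much higher. Over all measured genes these shares were 7.16% and 5.9%. The median of the list was -0.16, with 3 genes above 0 and 11 below. The gene past 1.5-fold was S100a8, for a subunit of the zinc-binding protein calprotectin. It had 9.95 FPKM untreated and 0.465 FPKM with ALA (log2 ratio -2.90). S100a9, for the other subunit, was listed at 0 in both libraries. The metalloproteases Lta4h and Ide were at -0.46 and 0.36, and Mmp2, the most abundant of the list, was at -0.17. Cbwd1, of a family linked to zinc transfer, was at -0.38, S100b at 0.37 and Enpp1 at 0.31.

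Metallothionein genes are also known targets of glucocorticoids, so a list of hormone-responsive genes was read beside them. Of 12 measured genes 1 lay past 1.5-fold on the higher side and 1 on the lower side. All measured genes gave 5.9% and 7.16%. The median of the list was -0.28, with 10 genes below 0, as were 5707 of all 10929 measured genes. Errfi1 was at -1.13, Tsc22d3 at -0.53 and Dusp1 at -0.38, while Fkbp5 was at 0.60. Cdkn1a, the most abundant, had 214 and 166 FPKM (-0.37), and Hsd11b1 was at -0.32. Nr3c1, the receptor gene, had 40.8 and 42.7 FPKM. The medians of the 4 lists ran from -0.28 to -0.07, and each share past 1.5-fold rests on 0 to 3 genes.

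**Figure D5:**
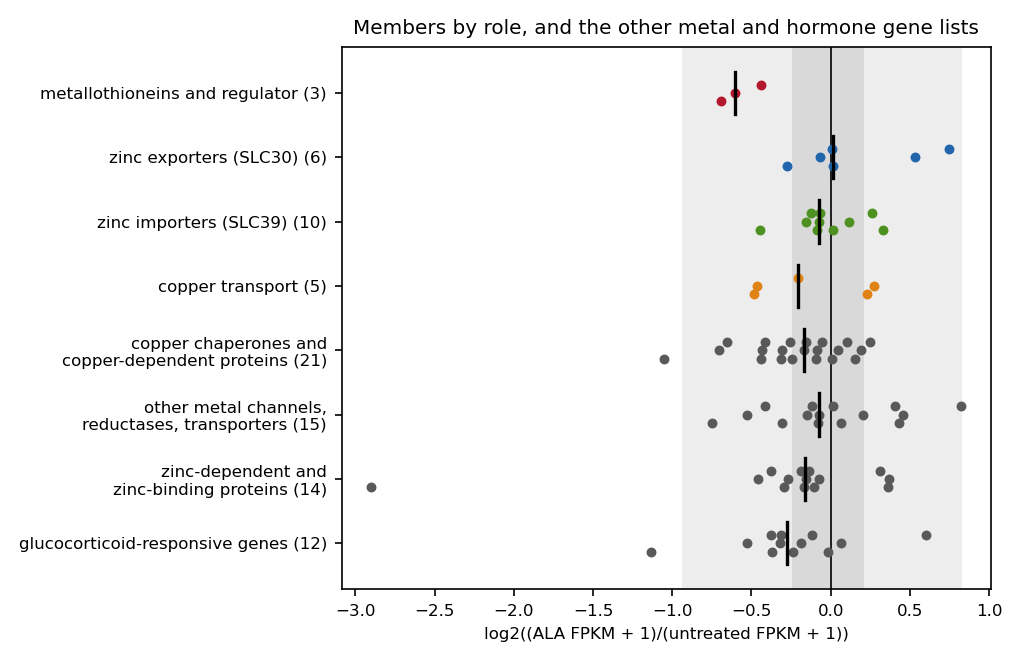
Log2 ratios of the measured members by role (coloured) and of the measured genes of 4 other lists (grey), with the number of genes in brackets and the median of each as a black bar; the dark and light bands hold the middle 50% and 95% of all measured genes. A reader should see the 3 genes of the metallothionein group left of the dark band, the importers around a median of -0.07, and S100a8 alone at -2.90.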

How the data were processed

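RNA of 2 NIH3T3 cultures, 1 untreated and 1 with ALA, was sequenced in single reads of 41 bases. The deposited table gives FPKM per gene, made by the authors with FastQC 0.11.5, TopHat2 2.1.1 and Cufflinks 2.2.1 on mm10, per the submitters' processing notes; the sources used here do not give the annotation, scaling and strand setting. Such values depend on transcript length and on how reads of overlapping genes were assigned.

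The members and lists were chosen with earlier results of these data known. From the FPKM values were computed log2 ratios (1 FPKM added), counts past 1.5-fold and 2-fold among genes that average 1 FPKM or more, and approximate counting intervals. Depth came from the steps of values between 0.002 and 0.15 FPKM in genes over 1500 bp with 1 transcript, and changed to 25200000 and 32800000 reads with 250 bp taken off each length. The interval and fold steps were tested on simulated data. All members are named, and of each list the 6 measured genes with the largest absolute log2 ratio and the most abundant one; Sod1, S100a9 and Nr3c1 were added after their values were seen. Gene models were GENCODE M21, matched for 94.4% of genes, and promoters RefSeq on GRCm38.p6. Python 3.11.15, numpy 2.4.6, pandas 2.3.3, scipy 1.17.1 and matplotlib 3.10.9 were used. Other pseudocounts, scalings, filters and a limit on shared sequence were tried.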

Additional observations from a re-analysis of the deposited data

How the results depend on the processing

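No paired analysis was possible because each group has 1 library, and for the same reason no replicate could be left out. With 5 FPKM added, 0 members were at least 1.5-fold higher (Slc30a1 at 0.43), the copper list had 1 gene lower (Cp at -0.47, Loxl4 at -0.39), and the other metal and glucocorticoid lists had 0 higher (Slc40a1 at 0.48, Fkbp5 at 0.48). With 0.1 FPKM added, the other metal list had 2 genes lower, as Slc41a3 reached -0.63. With equal library totals, a log2 shift of 0.08, 2 members were higher and 1 lower, 13 members lay above 0 and 11 below, and the median of the copper list was -0.094. All measured genes moved too under equal totals, to 7.76% higher, 5.87% lower and a median log2 ratio of 0.05. With the median ratio set to 1, 1 member was lower, and likewise 1 among members with little shared sequence, which leaves out Mt2. Without a filter, the other metal list had 2 genes higher and the zinc-dependent list a median of -0.052. With a mean of at least 5 FPKM, 0 members and 0 genes of the other metal list were higher, since Slc30a1 and Slc40a1 were no longer counted. Over the 4 pseudocount and scaling alternatives 21 of 24 measured members kept their sign; Slc30a4, Slc39a3 and Slc39a6 turned with equal totals. Summing Mtf1 with 1110065P20Rik, chosen after seeing the data, gave 0.46 for the pair. The number of genes past 1.5-fold over all measured genes ran from 194 to 881 higher and from 299 to 1037 lower across pseudocounts. The counting intervals of Mt2, Slc30a5 and Slc31a2 span the 1.5-fold limit, and the lack of a second library per group limits every difference.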

Other observations

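Of the genes within 150 kb of the metallothionein cluster on chromosome 8, those given here had log2 ratios closer to 0 than Mt1 and Mt2. Nudt21, for a subunit of the pre-mRNA cleavage complex, had 115 FPKM untreated and 104 FPKM with ALA, and Nup93, for a nuclear pore protein, had 39.7 and 36.8 FPKM. Their log2 ratios were -0.14 and -0.11. Bbs2 was at 0.24 and Ogfod1, for a prolyl hydroxylase, at 0.41. Slc12a3 was listed at 0 in both libraries.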
